A study of Homo sapiens with 8 samples.

Results

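Nucleolar ribosome biogenesis factors are the proteins that transcribe, modify, cut and fold ribosomal RNA on its way to a finished ribosome, and 44 of them, listed by name, were followed through ribosome profiling of amino acid starved cells. Their mRNAs were found by gene symbol, taking the highest transcript of a gene in each library, and 43 of the 44 were listed in at least 1 library, among 12235 genes in all. By role, 8 belong to the small nucleolar ribonucleoproteins (snoRNPs), 16 act on the 40S side, 10 act on the 60S side, 5 belong to the RNA polymerase I machinery and 5 have several roles. Ribosome profiling sequences the mRNA fragments that ribosomes shield from nuclease, so it measures how many ribosomes sat on each coding sequence, and a change can come from the amount of mRNA or from its use, which cannot be told apart here.

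The cells were HEK293T, an established human embryonic kidney line immortalized by SV40 large T antigen. They were kept overnight, by the sample records, in sufficient medium (Suff), which held dialyzed serum and all amino acids, or in the same medium without arginine (Arg-), leucine (Leu-) or methionine (Met-). Each medium was profiled in 1 series with cycloheximide, which stops ribosomes where they stand, and in 1 without, which makes 8 libraries. Each condition was profiled once, so there is no replicate error. No difference was tested, and every interval below covers counting error only.

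Ribosomes are built in the nucleolus. RNA polymerase I makes a long precursor, snoRNPs guide the chemical marking of its bases, and the small-subunit processome and a separate set of 60S factors cut and fold the subunits before they leave for the cytoplasm. Cells are known to slow this costly line of work when nutrients are short, through the kinase mTORC1 and through ribosomal RNA transcription. The mRNAs of the ribosomal proteins themselves start with a tract of pyrimidines that places them under mTORC1, whereas most biogenesis factors are better known as targets of the transcription factor MYC, which binds the E-box letters CACGTG.

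The starts of the mRNAs show which factors carry such a tract. Of the 44 factors, 38 matched a RefSeq promoter window running from 250 bases before to 50 bases after the annotated start (GRCh38.p14). A C at the start followed by an unbroken run of at least 5 pyrimidines in total was present in 4 of these 38 (10.5%), against 42 of 61 cytosolic ribosomal protein genes (68.9%) and 4.04% of all 27305 windows. The first 25 bases of these 4 mRNAs are shown with the pyrimidine run in capitals, because without cycloheximide NPM1 and FBL were among the lowest factors in Met- and DDX21 and UTP14A were not. The start of NCL is added as one without the tract.
NPM1 (chr5:171387849-171387873, plus strand): CTTTCCCTggtgtgattccgtcctg
FBL (chr19:39846355-39846379, minus strand): CTTTTCCacgtgcgaaagccccgga
DDX21 (chr10:68956170-68956194, plus strand): CTCTTCCTCTCCacgcggttgagaa
UTP14A (chrX:129906164-129906188, plus strand): CCTTCggcttccgttcttggtccat
NCL (chr2:231464460-231464484, minus strand): agtctcgagctctcgctggccttcg

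The E-box letters were far more widely spread among the factors than the tract. CACGTG, which reads the same on both strands, occurred in 16 of the 38 windows (42.1%), against 7.43% of all windows, 8.88% of the 15842 windows of protein-coding genes and 3 of 61 ribosomal protein genes (4.92%). On the 40S side it was present in 10 of 15 windows, on the 60S side in 3 of 8, among the snoRNP genes in 2 of 6 and among the RNA polymerase I genes in 0 of 5. A match to 6 letters is a description of the sequence and not a binding site. Stretches of 30 bases, with the E-box in capitals, are shown for factors chosen by their values without cycloheximide. NOC3L was at least 2-fold higher in each starved library, UTP4 was a 40S factor higher in each, BYSL was high in Met- alone and RRP9 was the lowest factor tested in Leu-.
NOC3L (chr10:94362903-94362932, minus strand): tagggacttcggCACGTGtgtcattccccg
UTP4 (chr16:69132621-69132650, plus strand): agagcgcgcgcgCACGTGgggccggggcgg
BYSL (chr6:41921515-41921544, plus strand): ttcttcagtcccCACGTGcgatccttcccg
RRP9 (chr3:51941892-51941921, minus strand): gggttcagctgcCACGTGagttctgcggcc

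The libraries held between 538222 and 6434043 reads on coding sequences with cycloheximide and between 1302523 and 3139745 without it. Met- with cycloheximide was the shallowest of all, and since no transcript with fewer than 64 reads was listed in that series, it holds only 27 of the 44 factors, whereas the other 3 libraries with cycloheximide hold 36 to 43. Without cycloheximide the lowest listed transcript had 5 reads, and each of the 4 libraries holds the same 41 factors. Values are reads per length of coding sequence scaled to the reads of each library (RPKM), so a loss of ribosomes from all mRNAs alike does not appear. Of the markers of the line, VIM was listed in all 8 libraries (97.6 to 626 RPKM), KRT18 in 6, KRT8 in 4 and PAX2 in 2, and ALB, PTPRC, HBB and MYH7, markers of liver, blood and muscle, were listed in none. ASNS, the asparagine synthetase that amino acid shortage is known to induce, was higher in every starved library than in Suff of its series (22.3 against 178 to 618 RPKM with cycloheximide and 68.0 against 392 to 689 without).

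Each starved library was set against Suff of its own series by the log2 ratio of RPKM with a pseudocount of 1, over genes listed in both libraries with a mean of at least 10 RPKM. The 3 ratios of a series share the Suff library, so an error in it would move all 3 together. Without cycloheximide 40 of the 44 factors passed these limits in each medium; UTP20 was under the RPKM limit, and NOP2, NOP16 and POLR1C were not listed. As a group the 40 factors stayed near the rest of the genome. Their median log2 ratio was 0.14 in Arg-, 0.03 in Leu- and 0.31 in Met-, against -0.02, 0.14 and 0.32 for all genes tested. In Arg- 5 of the 40 factors were at least 2-fold higher and 1 was at least 2-fold lower, beside 8.23% and 5.95% of 7448 genes. In Leu- the counts were 2 higher and 1 lower, beside 6.85% and 2.06% of 7558 genes. In Met- they were 8 higher and 1 lower, beside 20.2% and 5.34% of 7884 genes. By construction as many genes lie above the median of all genes as below it, and 22, 16 and 20 of the 40 factors did so in Arg-, Leu- and Met-. The share of factors called higher in Met- was thus close to that of all genes.

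**Figure D1:**
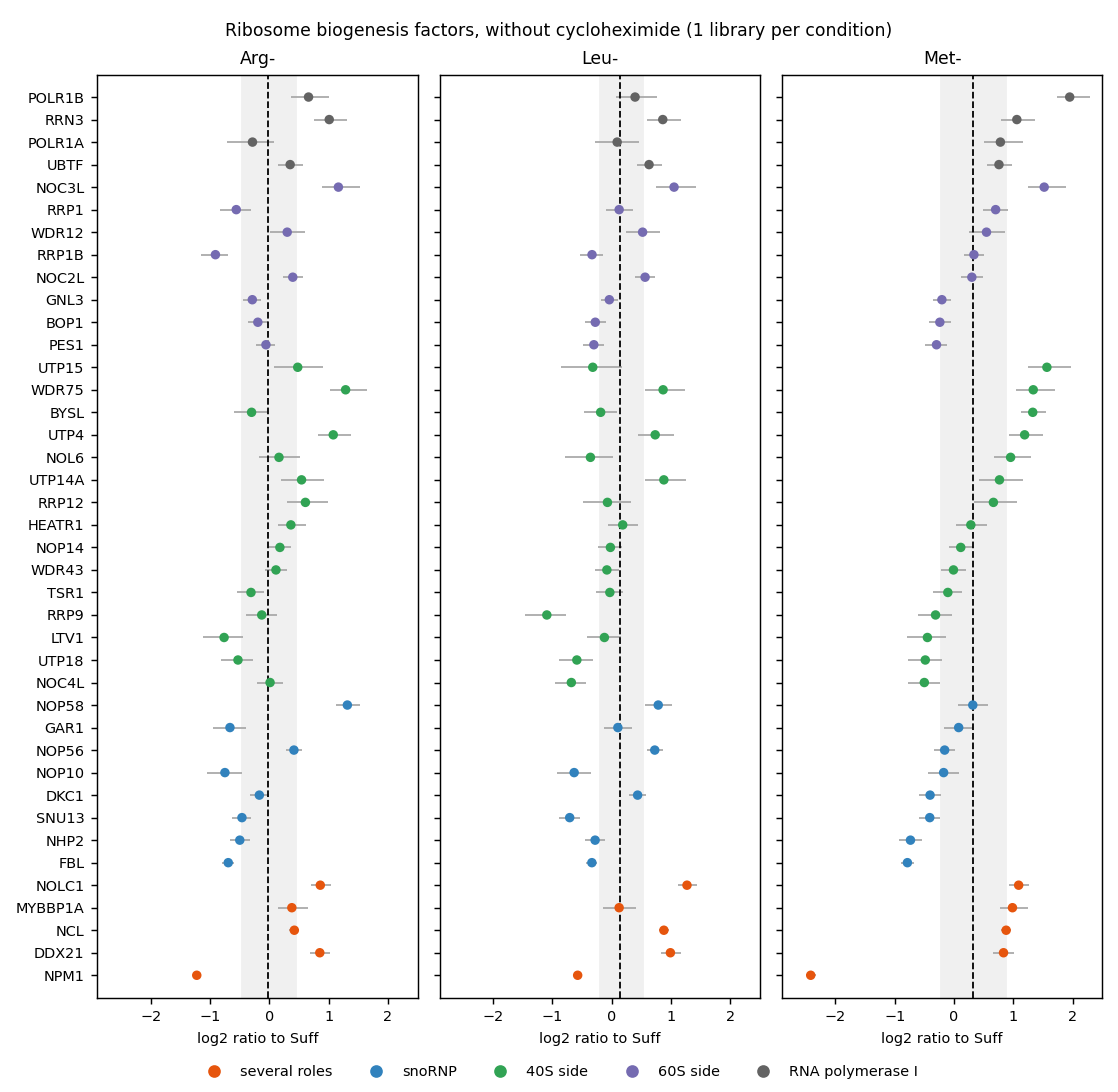
Log2 ratio of RPKM to Suff for the 40 factors tested in the series without cycloheximide, 1 row per gene and 1 panel per medium, coloured by role, with grey lines for the 95% counting interval of the RPKM fold, a dashed line at the median of all genes and a grey band for their interquartile range. NPM1 lies farthest to the left in Arg- and Met-, the RNA polymerase I genes lie right of the dashed line with the exceptions of POLR1A in Arg- and Leu-, and 7 of the 8 snoRNP genes lie left of it in Met-.

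The flat median hid differences between roles. Without cycloheximide the 8 snoRNP genes had a median of -0.48 in Arg-, -0.09 in Leu- and -0.29 in Met-, and 6, 5 and 7 of them lay below the median of all genes. The 4 RNA polymerase I genes had medians of 0.51, 0.51 and 0.92, and 3, 3 and 4 of them lay above it. The 5 factors with several roles had medians of 0.42, 0.88 and 0.88, with 4, 3 and 4 above. The 15 factors of the 40S side (0.16, -0.08 and 0.28) and the 8 of the 60S side (-0.13, 0.04 and 0.32) differed from the median of all genes by at most 0.22 in either direction, but lay lower against genes of like coding length, as described with the coding lengths. On that measure the RNA polymerase I medians were 0.11, 0.09 and 0.26 and the snoRNP medians -0.23, 0.01 and -0.34. The contrast between these roles was thus smaller once coding length was matched.

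Among the factors with several roles, NPM1 stood apart from the other 4. NPM1 (nucleophosmin) is an abundant chaperone of the nucleolus that binds histones and pre-ribosomes. Without cycloheximide it had 5869 RPKM in Suff, 2512 in Arg-, 3943 in Leu- and 1099 in Met-, so Suff was highest and Met- lowest. The RPKM was 2.34-fold lower in Arg- (95% counting interval 2.25 to 2.42), 1.49-fold lower in Leu- (1.44 to 1.54) and 5.34-fold lower in Met- (5.04 to 5.66). These 3 intervals do not overlap each other. With cycloheximide the order was another: 456 RPKM in Suff, 1264 in Arg-, 1849 in Leu- and 546 in Met-, with Suff the lowest. Among the starved libraries the order was the same in both series, with Leu- highest and Met- lowest. Only Suff, which all 3 ratios of a series share, changed its place. There the RPKM was 2.77-fold higher in Arg- (2.6 to 2.97), 4.06-fold higher in Leu- (3.8 to 4.33) and 1.20-fold higher in Met- (1.04 to 1.37). In Met- the median of all genes lay higher (log2 ratio 0.89), so centring on it turns the direction of NPM1 there. NPM1 has many near-identical processed copies in the genome, and the authors kept uniquely mapped reads, so its level is less certain than that of single-copy genes.

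NPM1 alone decided the share of footprints on the group. Without cycloheximide the 41 listed factors took 1.32% of the reads on coding sequences in Suff, 1.06% in Arg-, 1.27% in Leu- and 1.04% in Met-. The share was thus lower in the starved libraries. Of it, NPM1 took 0.519% in Suff, 0.222% in Arg-, 0.349% in Leu- and 0.0973% in Met-. The other 40 factors together took 0.804% (95% exact binomial interval 0.795 to 0.814) in Suff, 0.834% (0.820 to 0.848) in Arg-, 0.925% (0.909 to 0.940) in Leu- and 0.945% (0.929 to 0.962) in Met-, so without NPM1 the direction turned and Suff was lowest. With cycloheximide 27 factors were listed in all 4 libraries. Their share was 0.489% in Suff, 0.754% in Arg-, 0.742% in Leu- and 1.14% in Met-. It stayed lowest in Suff without NPM1 (0.449%, 0.643%, 0.579% and 1.10%). These 27 are the factors listed in the shallow Met- library, where a transcript under 64 reads drops out. The listing thus helped to set the Met- share, and no direction is drawn from it.

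**Figure D2:**
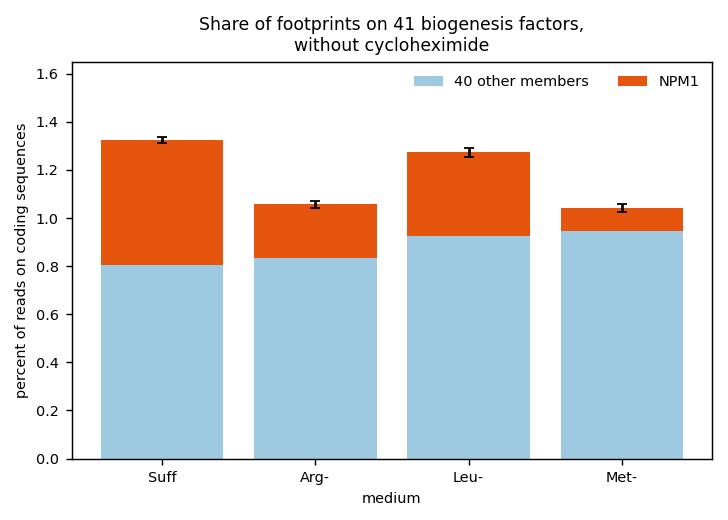
Percent of reads on coding sequences that fell on the 41 factors listed in all libraries without cycloheximide, by medium, split into NPM1 and the other 40, with the 95% exact binomial interval of the whole bar. The whole bar is highest in Suff (1.32%), while the lower part without NPM1 is lowest in Suff (0.804%).

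Of the other 4 factors with several roles, NCL, DDX21 and NOLC1 were higher in each starved library without cycloheximide, also after centring on the median of all genes. NCL (nucleolin), an RNA-binding protein of rDNA transcription and early processing, had 407 RPKM in Suff, 545 in Arg-, 749 in Leu- and 749 in Met- without cycloheximide. DDX21, an RNA helicase that links RNA polymerase I with rRNA processing, had 84.4, 153, 168 and 151 RPKM in the same order. NOLC1 (Nopp140), a chaperone of snoRNPs, had 89.1, 162, 216 and 191 RPKM. For these 3 genes Suff was lowest, and NCL in Arg- lay between Suff and the other starved libraries. NOLC1 was 1.82-fold higher in Arg- (1.62 to 2.05), 2.42-fold in Leu- (2.17 to 2.71) and 2.14-fold in Met- (1.90 to 2.41). MYBBP1A, a Myb-binding protein of the nucleolus, moved less, with log2 ratios of 0.38, 0.13 and 0.98, the middle one at the median of all genes. With cycloheximide NCL had 111, 455, 295 and 837 RPKM, DDX21 had 37.1, 155, 116 and 98.7, and NOLC1 had 36.2, 167, 186 and 186, again lowest in Suff. At their Suff levels with cycloheximide, DDX21 and NOLC1 would fall under 64 reads in Met-, so the listing largely set their side there. DDX21 carries the longest pyrimidine run of the 38 starts and NPM1 the next longest, and their ratios without cycloheximide lay on opposite sides of 0 in each medium.

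**Figure D3:**
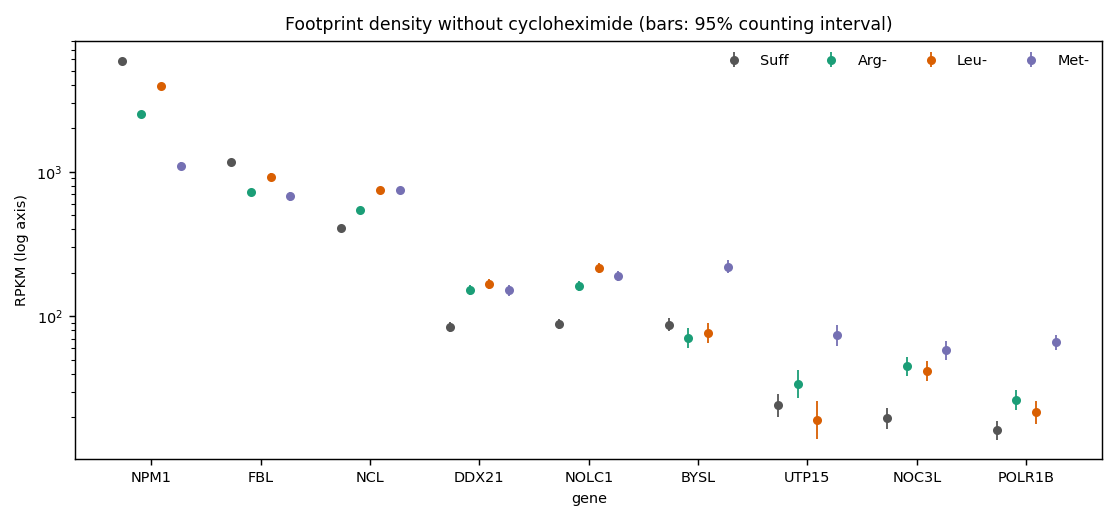
RPKM on a log axis for 9 factors in the 4 libraries without cycloheximide, 1 point per library with the 95% counting interval. NPM1 and FBL are highest in Suff, NCL, DDX21, NOLC1, NOC3L and POLR1B are lowest in Suff, and BYSL, UTP15 and POLR1B stand out in Met- alone.

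The snoRNPs come in a pair of classes. FBL (fibrillarin), NOP56, NOP58 and SNU13 form the box C/D particles that methylate ribose. Without cycloheximide FBL, the methyltransferase, had 1170 RPKM in Suff, 723 in Arg-, 927 in Leu- and 678 in Met-, so it was highest in Suff and 1.73-fold lower in Met- (1.60 to 1.86). Its partner NOP58 had 73.5, 184, 127 and 91.7 RPKM, lowest in Suff, level with the median gene in Met- and 2.51-fold higher in Arg- (2.18 to 2.88), the highest log2 ratio of all factors there (1.31). NOP56 had log2 ratios of 0.41, 0.73 and -0.16, and SNU13, which binds the kink of the guide RNA, had 931, 675, 569 and 700 RPKM and was highest in Suff. With cycloheximide FBL had 926, 983, 1143 and 1835 RPKM and was lowest in Suff, NOP58 had 37.7 in Suff, 188 in Arg- and 74.0 in Leu- and was not listed in Met-, and SNU13 had 1949, 958, 717 and 1258 and was highest in Suff. The proteins of 1 particle thus did not share a direction.

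Box H/ACA particles, which turn uridine into pseudouridine, hold DKC1, GAR1, NHP2 and NOP10. DKC1 (dyskerin), the enzyme, had 206 RPKM in Suff, 183 in Arg-, 279 in Leu- and 155 in Met- without cycloheximide, and was highest in Leu-. NHP2 had 764, 540, 629 and 459 RPKM and was 1.67-fold lower in Met- (1.46 to 1.91). NOP10 had log2 ratios of -0.75, -0.63 and -0.18, and GAR1 had -0.66, 0.10 and 0.08. With cycloheximide DKC1 was lowest in Suff, with 84.3 RPKM in Suff, 352 in Arg- and 313 in Leu-, and it was not listed in Met-. NHP2 had 1453, 581, 1082 and 1170 RPKM there and was highest in Suff. The 3 smallest snoRNP proteins were below Suff in Arg- in both series, with cycloheximide at -1.32 for NHP2, -1.02 for SNU13 and -0.96 for NOP10, and in Leu- SNU13 was 2.72-fold lower (2.55 to 2.90). NOP10 was not listed in Met- with cycloheximide, where the limit of 64 reads places it at least 3.07-fold below its 1904 RPKM in Suff.

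On the 40S side, 4 of 15 factors were at least 2-fold higher in Met- without cycloheximide and none was at least 2-fold lower, beside the 20.2% and 5.34% of all genes. UTP15, a subunit of the t-UTP complex that joins rDNA transcription to processing, had 24.3 RPKM in Suff, 34.3 in Arg-, 19.3 in Leu- and 74.0 in Met- without cycloheximide, from 45 to 150 reads. It was 3.04-fold higher in Met- (2.37 to 3.9), while its interval in Leu- spans no change (0.550 to 1.13). WDR75, a subunit of the same complex, had 19.5, 49.1, 36.4 and 50.8 RPKM and was lowest in Suff, with 2.51-fold more in Arg- (2.02 to 3.12). UTP4, another t-UTP protein, had 32.8, 70.2, 55.1 and 76.0 RPKM and log2 ratios of 1.08, 0.73 and 1.19. HEATR1, the largest t-UTP protein, had 17.9, 23.3, 20.5 and 22 RPKM, with log2 ratios of 0.36, 0.19 and 0.28, so not all subunits of the complex shifted as far. With cycloheximide UTP15 was listed in Arg- (44.4 RPKM) and Leu- (12.5), WDR75 in Arg- only (85.0), and HEATR1 in Suff (10.0), Arg- (17.6) and Leu- (8.5), so none of the 3 has a value in Met- there.

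BYSL (bystin), needed late in 40S maturation, was high in Met- and not in the other media without cycloheximide. Without cycloheximide it had 87.5 RPKM in Suff, 70.9 in Arg-, 76.8 in Leu- and 221 in Met-. It was 2.52-fold higher in Met- (2.18 to 2.92) and 1.23-fold lower in Arg- (1.02 to 1.5). With cycloheximide it had 38.1, 79.8, 48.7 and 201 RPKM, with Met- highest. At its Suff level with cycloheximide BYSL would fall under 64 reads in Met-. It could be listed there only if higher, so no direction in Met- is drawn from that series.

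Other 40S factors were lower without cycloheximide. RRP9, the U3 snoRNP protein that binds the U3 guide RNA, had 89.0 RPKM in Suff, 81.3 in Arg-, 41.2 in Leu- and 71.5 in Met- without cycloheximide. It was 2.16-fold lower in Leu- (1.71 to 2.75), the lowest of the factors tested in that medium. NOC4L, a partner of NOP14, had 108, 108, 66.8 and 75.7 RPKM, with a log2 ratio of -0.68 in Leu-. LTV1, which helps to export and finish the 40S particle, had 74.5, 43.5, 68.3 and 54.3 RPKM and was 1.71-fold lower in Arg- (1.37 to 2.16). UTP18, a further processome protein, had -0.53, -0.59 and -0.48. With cycloheximide these 4 were not lower throughout. RRP9 had 83.1, 96.1, 59.1 and 220 RPKM and NOC4L had 54.5, 77.0, 41.5 and 115. UTP18 had log2 ratios of 0.83, -0.04 and 1.66, so these 3 were highest in Met-. At their Suff levels with cycloheximide, NOC4L and UTP18 would fall under the lowest read count listed in Met-. RRP9 would lie near it. The listing thus largely set the side of these 3 in Met-, and no direction is drawn from it. LTV1 had 68.8 RPKM in Suff, 105 in Arg- and 79.3 in Leu- with cycloheximide and was not listed in Met-. In Arg- each of the 4 was above Suff, and in Leu- only LTV1 was. Without cycloheximide NOP14, NOL6, WDR43, TSR1, RRP12 and UTP14A ranged from -0.36 (NOL6 in Leu-) to 0.95 (NOL6 in Met-), and TSR1 in Arg- (-0.31) was the farthest from 0 of NOP14, WDR43 and TSR1. UTP20, a giant scaffold of the processome, stayed at 5.7 RPKM in Suff and 1.8 in Leu-, under the limit for a ratio.

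On the 60S side, NOC3L was the only factor at least 2-fold higher in each starved library without cycloheximide, although not in Leu- once ratios were centred on the median of all genes. NOC3L, a partner of NOC2L in early pre-60S particles, had 19.7 RPKM in Suff, 45.5 in Arg-, 42.0 in Leu- and 58.5 in Met-. Suff was lowest and the 3 starved libraries lay between 2.13-fold (1.68 to 2.68) and 2.96-fold (2.37 to 3.7) above it. With cycloheximide NOC3L was not listed in Suff, and against the limit of 64 reads its 50.1 RPKM in Arg- and 26.1 in Leu- were at least 4.81-fold higher in Arg- and at least 2.51-fold higher in Leu-. NOC2L had log2 ratios of 0.39, 0.56 and 0.30 without cycloheximide and 2.29, 1.73 and 3.48 with it. At its Suff level with cycloheximide NOC2L would fall under 64 reads in Met-, so the listing largely set its side there.

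The PeBoW complex, BOP1 with PES1 and WDR12, which is needed to process the 60S precursor, was flatter. BOP1 had 132 RPKM in Suff, 115 in Arg-, 109 in Leu- and 112 in Met- without cycloheximide, and PES1 had log2 ratios of -0.06, -0.30 and -0.30. WDR12 lay at 0.30, 0.52 and 0.55. With cycloheximide BOP1 had 41.4, 90.2, 104 and 230 RPKM, lowest in Suff. RRP1B, a nucleolar protein related to RRP1, had 110, 58.1, 87.1 and 139 RPKM without cycloheximide, being 1.89-fold lower in Arg- (1.63 to 2.21) and highest in Met-. With cycloheximide RRP1B had 67.3, 45.2, 67.7 and 210 RPKM, lowest in Arg- and highest in Met- as well. RRP1 without cycloheximide had log2 ratios of -0.56, 0.13 and 0.70. GNL3 (nucleostemin), a nucleolar GTP-binding protein, lay between -0.29 and -0.04 without cycloheximide. With cycloheximide its log2 ratios were 1.93 in Arg-, 1.76 in Leu- and 0.68 in Met-. NOP2, an rRNA methyltransferase, was listed with cycloheximide only, at 14.7 RPKM in Suff, 53.3 in Arg-, 26.2 in Leu- and 234 in Met-. At their Suff levels with cycloheximide, BOP1, GNL3 and NOP2 would fall under 64 reads in Met-, so the listing largely set their side there. NOP16 was likewise listed there only and was lower in the starved libraries, at 490, 296, 273 and 292 RPKM.

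Of the RNA polymerase I genes, POLR1B had the highest log2 ratio of all factors in Met- without cycloheximide (1.95). POLR1B, the second largest subunit of the enzyme, had 16.4 RPKM in Suff, 26.4 in Arg-, 21.8 in Leu- and 66.0 in Met-, which is 4.04-fold higher in Met- (3.35 to 4.88) and 1.33-fold higher in Leu- (1.05 to 1.69). With cycloheximide it had 12.9, 21.4, 13.4 and 53.3 RPKM, highest in Met-, where it could be listed only if higher than in Suff. POLR1A, the largest subunit, had 11.4, 9.1, 12.2 and 20.2 RPKM without cycloheximide and was 1.78-fold higher in Met- (1.42 to 2.24). RRN3 (TIF-IA), the factor that brings the polymerase to the promoter, had 34.4, 70.1, 63.2 and 72.6 RPKM and log2 ratios of 1.01, 0.86 and 1.06. UBTF, the architectural factor of active rDNA, had 61.8, 79.0, 96.1 and 105 RPKM and was lowest in Suff. With cycloheximide UBTF had 31.5, 80.3, 66.4 and 190 RPKM and was again lowest in Suff, while POLR1A was listed in Arg- (4.1) and Leu- (3.5) only. At their Suff levels with cycloheximide, POLR1B and UBTF would fall under 64 reads in Met-, so the listing largely set their side there. POLR1C, a subunit that RNA polymerase III shares, was found in none of the 8 libraries.

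With cycloheximide the group lay above the rest of the genome. The median log2 ratio was 1.17 over 34 factors in Arg-, 0.75 over 33 in Leu- and 1.63 over 27 in Met-, against -0.23, 0.02 and 0.89 for all genes tested. In Arg- 19 factors were at least 2-fold higher and 2 at least 2-fold lower, beside 16.6% and 19.7% of 5074 genes. In Leu- the counts were 12 and 2, beside 12.1% and 7.28% of 5208 genes. In Met- they were 18 and 0, beside 46.7% and 9.79% of 1890 genes. Of the factors tested, 28, 25 and 20 lay above the median of all genes. The factors with several roles led in Arg- and Leu-, with medians of 2.03 and 1.62, the 60S side had 1.24, 0.86 and 2.42, the 40S side 0.94, 0.35 and 1.40, and the snoRNP genes -0.06, 0.24 and 0.43.

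The values for Met- with cycloheximide rest on which mRNAs the library lists. A factor low in this shallow library falls under 64 reads and drops out, so those that stay are those that are high. When genes were chosen by their Suff level alone, with at least 128 reads to be expected in the starved library, 6 factors remained in Met-, their median was -0.47 and that of all 692 such genes was -0.93, so the sign turned. The same choice left the medians at 1.17 in Arg- and 0.72 in Leu-. This alternative was added after seeing the data.

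**Figure D4:**
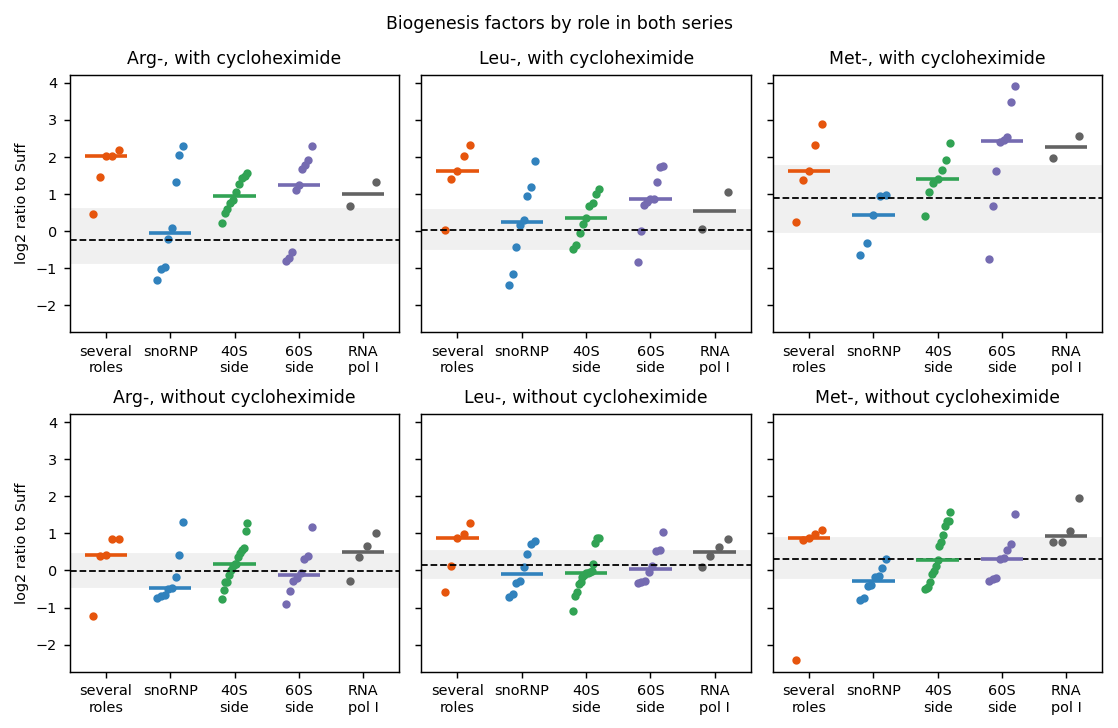
Log2 ratio of RPKM to Suff by role, with cycloheximide (upper panels) and without it (lower panels), 1 point per factor, with a coloured bar at the median of the role, a dashed line at the median of all genes and a grey band for their interquartile range. With cycloheximide most factors of the 40S and 60S sides lie above the dashed line, without it they lie around it, and the lowest point of the lower panels is NPM1 in Met-.

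The share of factors on the same side in both series was below that of all genes in each medium. Of the factors tested in both, 20 of 32 in Arg-, 18 of 31 in Leu- and 16 of 25 in Met- lay on the same side of the median of all genes with and without cycloheximide (62.5%, 58.1% and 64%), beside 68.5%, 70.8% and 71.6% of all genes, a difference that was not tested. BOP1, PES1 and FBL lay on opposite sides in all 3 media. The series are separate experiments that differ in the drug, in the removal of duplicate reads, in the lowest read count and, for DDX21, DKC1, GNL3, MYBBP1A, PES1, SNU13, UTP4, UTP15 and WDR75, in the transcript listed, and these cannot be told apart. POLR1B, BYSL, NOLC1 and NCL kept their side in all 3 media or, for BYSL, in Met-. At their Suff levels with cycloheximide, POLR1B, BYSL and NOLC1 would fall under 64 reads in Met-. They could be listed there only if higher, so the listing largely set their side in that library.

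Coding length moved with the ratios. Without cycloheximide Spearman's rho between coding length and log2 ratio across the 40 factors was 0.54 in Arg-, 0.43 in Leu- and 0.54 in Met-, and across all genes it was 0.36 (7226 genes), 0.31 (7334) and 0.43 (7651). These are descriptions across genes of the same pair of libraries, which are not independent. When all genes were cut into 10 classes of equal size by coding length, the shortest class had a median log2 ratio of -0.25 in Met- and the longest class 0.90. The 4 shortest factors, NOP10 (195 nt), SNU13 (399 nt), NHP2 (462 nt) and GAR1 (654 nt), are snoRNP proteins, while NPM1 (885 nt) and FBL (966 nt) come next. Set against the median of genes in their own length class, the 40 factors had medians of -0.15, -0.31 and -0.18 without cycloheximide, so they lay below genes of like length. By role the medians were -0.23, 0.01 and -0.34 for the snoRNP genes, -0.14, -0.42 and -0.55 for the 40S side, -0.31, -0.17 and -0.44 for the 60S side, 0.11, 0.09 and 0.26 for the RNA polymerase I genes and 0.10, 0.49 and 0.08 for those with several roles. The several-roles median in Met- was thus 0.88 against Suff and 0.08 against genes of like length. With cycloheximide the same step left 0.77 over 33 factors in Arg-, 0.36 over 32 in Leu- and 0.16 over 27 in Met-. The part of length in the ratios was not tested.

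**Figure D5:**
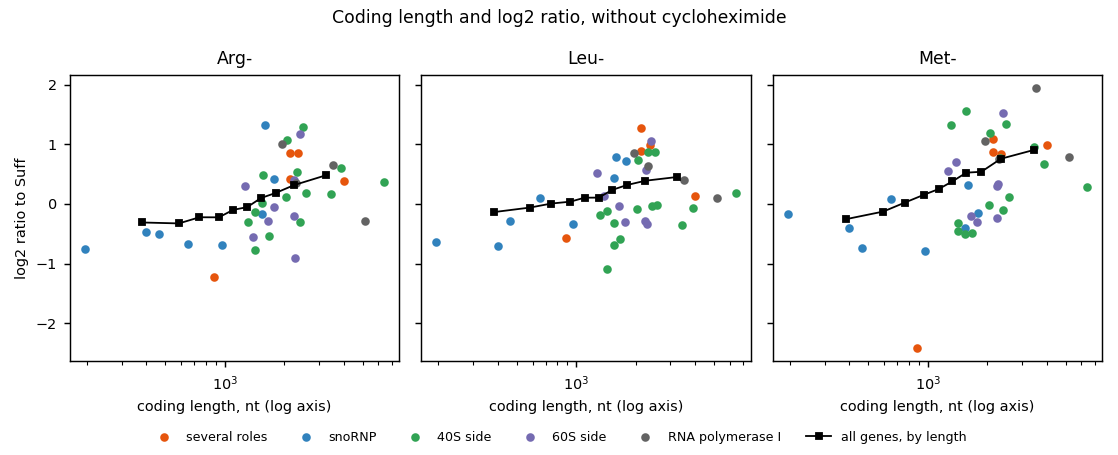
Log2 ratio of RPKM to Suff against coding length (log axis, nt) without cycloheximide, 1 point per factor coloured by role, with black squares for the median of all genes in 10 classes of coding length. The short snoRNP genes lie at the lower left, and the line of all genes climbs from -0.25 to 0.90 in Met-.

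The factors with the E-box letters and those without them overlapped in their ratios. Without cycloheximide the 14 factors with the letters that were tested had medians of 0.03, -0.15 and 0.05 in Arg-, Leu- and Met-, and the 20 without them had 0.33, 0.29 and 0.42. With the letters the range in Met- ran from -0.79 (FBL) to 1.52 (NOC3L), and without them from -2.42 (NPM1) to 1.95 (POLR1B), so the ranges overlap. With cycloheximide the medians were 0.94, 0.32 and 1.64 with the letters and 1.32, 1.10 and 1.07 without, so in Met- the order was the other way. The Met- medians rest on 10 and 13 factors listed in that shallow library. Several of them could be listed there only if higher than in Suff, so nothing is drawn from this order. The ribosomal proteins, whose mRNAs mostly start with the pyrimidine tract, were lower in each starvation without cycloheximide, with medians of -0.25, -0.93 and -0.53 over 74 genes and 56, 74 and 73 of them below the median of all genes. Their ratios were not set against genes of like coding length. The shortest class of all genes had medians of -0.31, -0.14 and -0.25 in the same media, and the part of length was not tested.

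As a whole the factors were close to other genes in the codons of the missing amino acids. Leucine codons made up a median of 9.83% of the codons of the factors and 9.73% over all genes, methionine codons 2.02% and 2.20%, and arginine codons 5.98% and 5.62%. The 5 factors with several roles had a lower leucine median of 6.0%, below the 6.42% at the 10th percentile of all genes. NOLC1, the highest factor in Leu- without cycloheximide, had the lowest share of leucine codons (2.82%). POLR1B, the highest in Met-, had 3.84% methionine codons, above the median of all genes, and NPM1, the lowest in Met-, had 2.72%. NPM1 also had the lowest share of arginine codons among the factors (2.72%) and was the lowest factor in Arg-.

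A wider list of 111 other genes of the same pathway lay slightly below the median of all genes without cycloheximide. Of these, 102 were tested in Arg-, 102 in Leu- and 104 in Met-. Their medians were -0.15, -0.07 and 0.16, against -0.02, 0.14 and 0.32 for all genes, and 55, 68 and 59 of them lay below the median of all genes. At least 2-fold higher were 6, 4 and 16, beside 8.23%, 6.85% and 20.2% of all genes, and at least 2-fold lower were 10, 1 and 4, beside 5.95%, 2.06% and 5.34%. With cycloheximide the medians of this list were 0.16 over 78 genes, 0.37 over 75 and 1.02 over 44, between those of all genes and those of the factors in each medium. DDX18, a helicase of the 60S side, was highest in Arg- (52.4 RPKM in Suff and 137 in Arg-), GNL2, a GTP-binding protein of the 60S side, in Leu- (37.9 and 98.0) and WDR3, a processome protein, in Met- (25.9 and 83.8). POLR2F, a small subunit that the RNA polymerases share, was lowest in Arg- (415 and 150 RPKM) and in Met- (177).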

How the data were processed

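The authors trimmed adaptors and low-quality bases, aligned reads to the human transcriptome (GRCh38) with Bowtie without mismatch, kept unique matches and deposited RPKM per Ensembl transcript. Names of the deposited tables show that duplicates were removed without cycloheximide. The annotation release is not given in the sources used here. Between 96.4% and 96.7% of transcripts matched GENCODE 44, and read counts came from the whole steps of RPKM times coding length (97.1% to 97.4% on a step, tolerance 0.01 reads). DKC1's transcript with cycloheximide had no coding sequence there, so it has no interval. Ratios used a pseudocount of 1 and a minimum mean of 10 RPKM. Intervals of folds are exact conditional binomial (95%). The factors and lists were chosen with earlier results of these data known. All factors are described; those given in every library that lists them are the 3 highest and 3 lowest per medium without cycloheximide, fixed representatives and unlisted ones, and NOP56, NOP10, BYSL, RRN3, UTP4 and others were added after their values were seen. Fold changes on the log2(RPKM + 1) scale understate low genes. Scripts were tested on simulated data. The tools were scipy 1.17.1 and pandas 2.3.3 under Python 3.11.15, with numpy 2.4.6, and figures came from matplotlib 3.10.9.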

Additional observations from a re-analysis of the deposited data

Results flagged for a closer look

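Against Suff, NPM1 in Arg- went in opposite directions in the 2 series by more than 2-fold each. After subtracting the median of all genes its log2 ratio to Suff was 1.70 with cycloheximide and -1.20 without it, a difference of 2.90. With 1 library per condition the difference was not tested, and the drug cannot be told apart from the other differences between these separate experiments, which include the removal of duplicates and the lowest read count listed. The level of NPM1 differed more between the series in Suff (456 RPKM with cycloheximide and 5869 without) than in Arg- (1264 and 2512). The other starved libraries had 1849 and 3943 RPKM in Leu- and 546 and 1099 in Met-. The reversal thus went with the level in Suff.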

How the results depend on the processing

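A pseudocount of 0.1, summed transcripts of a gene and 1 fixed transcript per gene moved none of the group values. Settings added after seeing the data were NPM1 left out, genes chosen by Suff and genes of like coding length. With cycloheximide, centring on the median of all genes gave medians of 1.40 in Arg- and 0.74 in Met- and a trimmed mean gave 0.73 in Met-; both gave 1 factor at least 2-fold lower in Arg-, and 11 higher and 3 lower in Met-. The trimmed mean shifted all log2 ratios by 0.21, -0.02 and -0.89 with cycloheximide and by -0.09, -0.23 and -0.43 without it in Arg-, Leu- and Met-. Counting unlisted mRNAs as 0 gave a median of 1.19 and 7 lower in Met-. Genes chosen by Suff left 6 factors in Met- and gave -0.47 (reversed), with 0 higher and 1 lower. The 60S median of -0.74 there is the value of NOP16 alone. Of those of the 6 also tested without cycloheximide, 0 lay on the same side in both series in Met-. Genes of like length gave 0.77, 0.36 and 0.16, and turned the 40S side in Met- to -0.050.

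Without cycloheximide, a minimum of 50 RPKM gave medians of -0.15 in Arg- and -0.057 in Met-, with 3, 1 and 4 factors higher in Arg-, Leu- and Met-. No minimum gave 2 lower in Leu-, with UTP20 added to RRP9. Centring on the median gave -0.0076 in Met-, with 1 higher in Leu- and 5 higher and 3 lower in Met-. A trimmed mean gave -0.12 in Met-, with 3 higher and 2 lower in Arg-, 1 higher in Leu- and 3 higher and 3 lower in Met-. Genes chosen by Suff gave -0.17 in Arg- and -0.10 in Met-, with 1, 1 and 2 higher. Genes of like length gave -0.15, -0.31 and -0.18. Leaving out NPM1 gave 0 lower in Arg- and Met- and turned the share of reads over Suff from 0.798, 0.962 and 0.787 to 1.04, 1.15 and 1.17. The cause of these shifts was not tested. With 5 reads as the lowest count, ratios of factors near 10 RPKM, such as POLR1A, have wide counting intervals.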
